A study of Homo sapiens with 12 samples.

Results

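The 42 genes described here encode the folding and quality control machinery of the endoplasmic reticulum (ER): chaperones of the HSP70 and HSP90 families with their partners, the lectins calnexin and calreticulin, oxidoreductases and isomerases, factors of ER-associated degradation (ERAD), and the sensors and transcription factors of the unfolded protein response. They were chosen by symbol from the 62703 genes of the count table. Each of the 42 symbols matched exactly 1 gene ID, and all 42 passed the filter on low counts and were among the 21567 genes tested. RNA sequencing counts came from H69 cells, a line of human cholangiocytes (bile duct epithelial cells) immortalised with a viral large T antigen. After 6 h without serum, cells were treated overnight in serum-free medium in 4 groups of 3 libraries: TGFβ (10 ng/mL) plus Aramchol (30 µM), TGFβ without Aramchol, Aramchol without TGFβ, and vehicle. TGFβ is a cytokine that drives matrix secretion, and Aramchol is a conjugate of a bile acid and a fatty acid that lowers stearoyl-CoA desaturase activity. The labels state 1 Aramchol dose, which was read as that of each group given the compound. Whether the 3 libraries of a group came from separate cultures is not in the labels. A p-value here therefore covers the spread among libraries alone, and that spread may be technical. H69 is 1 line, and these bulk RNA libraries cannot tell fewer cells of a kind from less RNA per cell.

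Proteins that enter the secretory pathway fold in the ER lumen, where HSP70-type and HSP90-type chaperones hold unfolded chains, lectins hold glycosylated chains, and oxidoreductases make and shuffle disulfide bonds. Chains that fail are drawn back to the cytosol and degraded by ERAD. When unfolded chains accumulate, 3 membrane sensors, ATF6, IRE1 (encoded by ERN1) and PERK (encoded by EIF2AK3), raise chaperone and ERAD genes through cleaved ATF6 and spliced XBP1 and slow translation through PERK. The related factors CREB3L1 and CREB3L2 are cleaved in the same way and are known for raising secretory genes in cells that export collagen. Splicing of XBP1 and cleavage of ATF6 are not visible in counts per gene.

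Promoter sequence is shown because many chaperone genes are known to carry the ER stress response element, at which ATF6 acts together with NF-Y. RefSeq promoter windows (GRCh38.p14, from 250 bases before to 50 bases after each start) were found for 39 of the 42 genes, with several windows for 7 of them. Both strands were searched for the ERSE, spelled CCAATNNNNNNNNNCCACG, and for ERSE-II, spelled ATTGGNCCACG. The ERSE was found in 8 of the 39 genes, against 0.0916% of all 27305 genes with a window. ERSE-II was found in 3 of the 39 genes, against 0.0696% of all genes. Below, each match reads 5′ to 3′ in the direction of the motif, and capitals mark its fixed letters.
HSPA5: CCAATcggcggcctCCACG
HSP90B1: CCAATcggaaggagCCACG
CALR: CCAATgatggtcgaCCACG
CANX: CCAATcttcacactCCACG
PDIA6: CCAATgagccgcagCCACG
CRELD2: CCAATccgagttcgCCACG
ERO1B: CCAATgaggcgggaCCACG
XBP1: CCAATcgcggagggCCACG
HYOU1: ATTGGaCCACG
SDF2L1: ATTGGtCCACG
HERPUD1: ATTGGgCCACG

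Counted back from the base before the start, which is -1, the match nearest to the start lay with its first base at -66 in HSPA5 and at -52 in XBP1, both on the strand of the gene. The HSP90B1 window held 2 matches (-194 and -89), and the HYOU1 window also held 2 (-185 and -79). CANX has 3 windows that contain the same match. Of the shorter motifs, the UPRE spelled TGACGTGG was in HYOU1, DNAJC10, TXNDC5 and TXNDC11 (4 of the 39 genes, against 0.927% of all genes), and the HYOU1 match overlapped one of its ERSE-II matches. TGATGNAA, the CARE motif of C/EBP and ATF factors, was in HERPUD1 and CREB3L2 (2 of the 39 genes, against 4.46% of all genes). The parts of the ERSE on their own were common, with CCAAT in 31 of the 39 genes (39.7% of all genes) and CCACG in 29 (42.1% of all genes). The 250 bases before the start are shown for HSPA5, HSP90B1, HYOU1 and HERPUD1, the genes with these motifs whose TGFβ differences were largest. Capitals again mark the fixed letters, and a match on the opposite strand reads as its reverse complement.
HSPA5, chr9:125241344-125241593, minus strand: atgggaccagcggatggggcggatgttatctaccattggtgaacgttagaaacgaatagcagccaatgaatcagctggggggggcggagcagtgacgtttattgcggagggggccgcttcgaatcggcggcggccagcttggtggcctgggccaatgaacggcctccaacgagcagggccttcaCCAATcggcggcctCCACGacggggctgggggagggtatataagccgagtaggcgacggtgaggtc
HSP90B1, chr12:103930160-103930409, plus strand: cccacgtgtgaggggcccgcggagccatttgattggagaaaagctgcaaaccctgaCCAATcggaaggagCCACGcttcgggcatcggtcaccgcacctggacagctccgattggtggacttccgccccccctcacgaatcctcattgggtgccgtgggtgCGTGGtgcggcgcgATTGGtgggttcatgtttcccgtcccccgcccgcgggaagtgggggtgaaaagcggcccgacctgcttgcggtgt
HYOU1, chr11:119057206-119057455, minus strand: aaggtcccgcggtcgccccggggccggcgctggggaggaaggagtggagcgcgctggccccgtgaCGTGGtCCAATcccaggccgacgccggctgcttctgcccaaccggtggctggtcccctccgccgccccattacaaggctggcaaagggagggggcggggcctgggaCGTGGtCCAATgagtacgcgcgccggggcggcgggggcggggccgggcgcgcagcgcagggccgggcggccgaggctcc
HERPUD1, chr16:56931892-56932141, plus strand: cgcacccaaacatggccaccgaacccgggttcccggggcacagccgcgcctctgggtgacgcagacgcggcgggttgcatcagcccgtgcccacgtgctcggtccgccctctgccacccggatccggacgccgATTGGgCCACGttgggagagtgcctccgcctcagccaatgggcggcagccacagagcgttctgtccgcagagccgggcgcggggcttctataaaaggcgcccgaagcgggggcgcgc

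The libraries held 52279922 to 70339925 counts, of which the 42 genes took 0.785 to 1.26%. A count of 3 was taken as the floor per library and equals 0.0410 to 0.0548 CPM, here CPM of the TMM-scaled library size. Of the cholangiocyte markers, KRT7, KRT8, KRT18 and SLC4A2 were abundant in every group, while CFTR and SPP1 were at or near 0. The 4 libraries numbered 3 stood apart on the third principal component (6.68% of variance). On the second (7.15%), vehicle library 3 lay at 5.32, apart from vehicle libraries 1 and 2 at -24.8 and -27.3. The Aramchol libraries lay there at 10.1 to 15.6. Vehicle library 3 and Aramchol library 3 were each the lowest of their group for 25 of the 42 genes. This order was not counted over all genes, so it is not read as particular to the 42. The labels do not say what the number 3 stands for. Counts and values that moved most without 1 of these libraries, mainly those of Aramchol against vehicle and the interaction, are given beside those comparisons. DERL3 was near the floor in every library, at 0.108 to 0.496 CPM. By exon overlap, 77.0% of its exonic bases lie under SMARCB1 on the other strand and 60.9% of those of TXNDC5 lie under the readthrough gene BLOC1S5-TXNDC5. Smaller overlaps on the other strand touch PPIB (26.6%) and PDIA6 (25.2%), and the sources used here do not give the strand setting of the counting.

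TGFβ against vehicle asks how the cytokine alone moved ER folding capacity at the RNA level. It raised 29 of the 42 genes and lowered 2 (ERN1 and EDEM2), where a gene counts as changed below a Benjamini-Hochberg adjusted p of 0.05 in edgeR's quasi-likelihood fit. Over all genes tested, 18.9% were called higher and 18.1% lower. The median log2 difference of the 42 genes was 0.45, against -0.03 for all genes tested. Summed over the 42 genes, the level was 13232 ± 326 CPM with TGFβ and 8169 ± 724 CPM with vehicle (SD, n = 3 each). Where Aramchol was present in both arms, TGFβ + Aramchol against Aramchol, which shares no library with the first comparison, called 26 genes higher and 1 lower (ERN1), against 16.0% and 14.2% of all genes. The 26 genes were all among the 29 (89.7% of the 29), and CREB3L2, EIF2AK3 and ERP44 passed without Aramchol alone. The median log2 difference was then 0.30, against -0.01 for all genes, and the summed level was 10740.1 ± 450.1 CPM with TGFβ + Aramchol and 7838 ± 351 CPM with Aramchol.

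**Figure D1:**
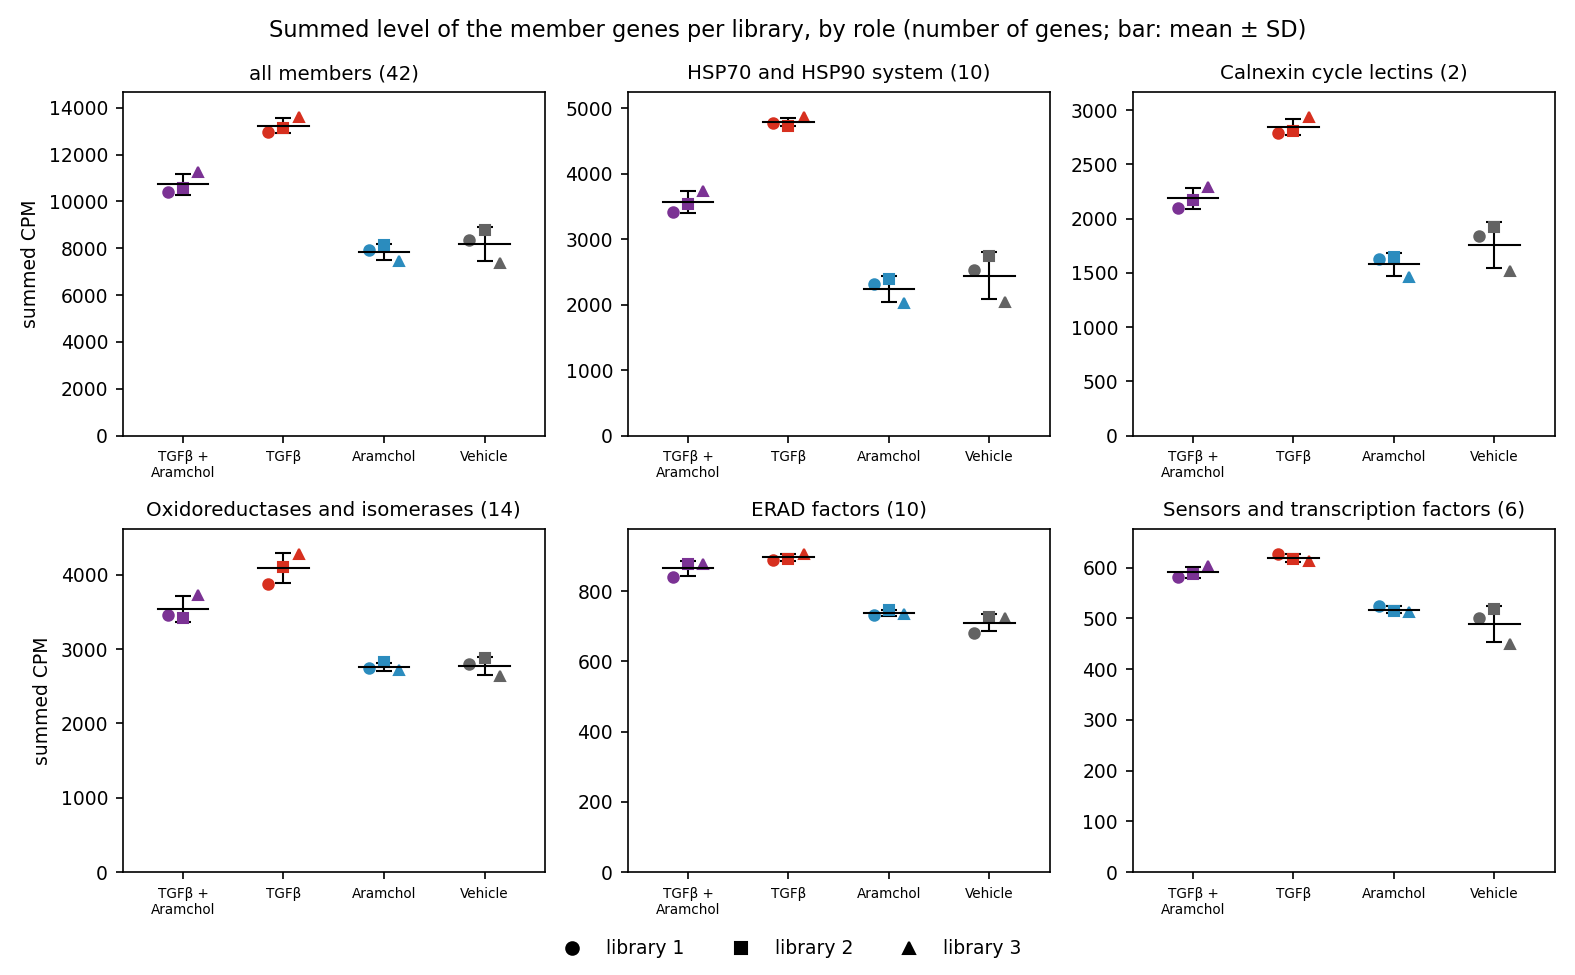
Summed CPM of the 42 genes and of their 5 role groups in each library, with circles, squares and triangles for the libraries numbered 1, 2 and 3 and bars for mean ± SD. For all 42 genes the TGFβ + Aramchol libraries lie between 10383 and 11246, below the TGFβ libraries and above the Aramchol and vehicle libraries.

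The HSP70 and HSP90 system held the 2 largest differences in both comparisons, those of HSPA5 and MANF. Of its 10 genes, 8 rose with TGFβ in both comparisons, and DNAJB9 and SIL1 passed in neither. HSPA5 (ENSG00000044574, GRCh38 chromosome 9, 125234853 to 125241382, minus strand) encodes BiP, the HSP70 of the ER lumen. It was at 1520.0, 1554 and 1723 CPM with TGFβ + Aramchol, 2238, 2237 and 2345 CPM with TGFβ, 883, 913 and 718 CPM with Aramchol and 1037, 1141 and 748 CPM with vehicle. All 6 libraries with TGFβ lay above all 6 without it, and vehicle library 3 and Aramchol library 3 were the lowest of their groups. The log2 difference was 0.93 ± 0.12 with Aramchol present and 1.22 ± 0.12 without it, a 1.91-fold and a 2.33-fold rise (adjusted p = 2.09e-05 and 9.05e-07 by edgeR). Without vehicle library 3 the difference of TGFβ against vehicle was 1.06. HSP90B1 (chromosome 12, 103930107 to 103953931, plus strand) encodes GRP94, the HSP90 of the ER. Its levels were 981, 1021 and 1088 CPM with TGFβ + Aramchol, 1429.5, 1375 and 1402 CPM with TGFβ, 753, 783 and 689 CPM with Aramchol and 795, 895 and 694 CPM with vehicle. The log2 difference was 0.47 ± 0.08 with Aramchol present and 0.82 ± 0.08 without it, and again no library with TGFβ overlapped one without. HYOU1, a large HSP70-like exchange factor for BiP, was at 346, 378 and 347 CPM in the TGFβ + Aramchol libraries, 442, 436 and 427 CPM in the TGFβ libraries, 256, 265 and 211 CPM in the Aramchol libraries and 251, 258 and 198 CPM in the vehicle libraries. It differed by 0.55 ± 0.09 with Aramchol present and 0.88 ± 0.09 without it on the log2 scale.

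The cochaperones of BiP split into genes that rose and genes that did not pass. DNAJB11, a J-domain protein that hands chains to BiP, stood at 122, 128 and 137 CPM with TGFβ + Aramchol, 150.2, 154 and 160.1 CPM with TGFβ, 88.5, 88.8 and 85.9 CPM with Aramchol and 88.9, 96.4 and 81.5 CPM with vehicle. DNAJC3, a J-domain protein known as P58IPK, had 63.8, 65.8 and 61.8 CPM with TGFβ + Aramchol, 81.5, 82.8 and 81.9 CPM with TGFβ, 49.5, 51.9 and 47.1 CPM with Aramchol and 54.3, 59.1 and 50.8 CPM with vehicle. Both rose, by log2 differences of 0.56 ± 0.06 with Aramchol present and 0.80 ± 0.06 without it for DNAJB11 and 0.37 ± 0.06 with Aramchol present and 0.58 ± 0.06 without it for DNAJC3. DNAJC10, a J-domain disulfide reductase, averaged 151 ± 6.58 CPM with TGFβ + Aramchol, 151 ± 2.92 CPM with TGFβ, 129 ± 2.36 CPM with Aramchol and 115 ± 5.25 CPM with vehicle (SD, n = 3 each), with a log2 difference of 0.23 ± 0.05 with Aramchol present and 0.40 ± 0.05 without it. DNAJB9, a J-domain protein that acts on IRE1 and is a classical XBP1 target, was at 18.3, 20.5 and 18.1 CPM with TGFβ + Aramchol, 21.04, 22.1 and 20.5 CPM with TGFβ, 19.5, 18.9 and 15.96 CPM with Aramchol and 17.98, 17.97 and 20.2 CPM with vehicle. Its TGFβ libraries lay just above the vehicle libraries, and neither comparison passed, with log2 differences of 0.07 ± 0.08 with Aramchol present and 0.18 ± 0.08 without it. SIL1, a nucleotide exchange factor of BiP, averaged 29.3 ± 1.30 CPM with TGFβ + Aramchol, 32.02 ± 3.01 CPM with TGFβ, 28.8 ± 1.84 CPM with Aramchol and 28.9 ± 0.863 CPM with vehicle and passed in neither comparison.

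The small partners of BiP rose as well. MANF, a secreted ER stress protein that binds BiP, was at 147, 143 and 148 CPM with TGFβ + Aramchol, 182, 196 and 188 CPM with TGFβ, 83.2, 84.1 and 74.9 CPM with Aramchol and 106, 104 and 82.7 CPM with vehicle. The TGFβ + Aramchol libraries formed a narrow band between the TGFβ libraries and all others. The log2 difference was 0.85 ± 0.08 with Aramchol present and 0.95 ± 0.08 without it, the second largest among the 42 genes in both comparisons. SDF2L1, which works with DNAJB11, was at 39.3, 36.5 and 35.99 CPM with TGFβ + Aramchol, 41.5, 47.5 and 45.5 CPM with TGFβ, 24.5, 26.04 and 23.3 CPM with Aramchol and 33.8, 29.2 and 22.7 CPM with vehicle. It differed by 0.60 ± 0.11 with Aramchol present and 0.65 ± 0.11 without it on the log2 scale, and the vehicle libraries were spread more widely than those of the other groups.

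Both lectins of the calnexin cycle, which retain chains with monoglucosylated glycans until they fold, rose with TGFβ. CALR (chromosome 19, 12938578 to 12944489, plus strand) encodes calreticulin and was at 1319, 1341 and 1462 CPM with TGFβ + Aramchol, 1794, 1853 and 1957 CPM with TGFβ, 952, 973 and 842 CPM with Aramchol and 1155, 1189 and 895 CPM with vehicle. CANX (chromosome 5, 179678628 to 179731641, plus strand) encodes its membrane-bound relative calnexin and was at 783, 833 and 830.3 CPM with TGFβ + Aramchol, 997, 956 and 976 CPM with TGFβ, 675, 677 and 618 CPM with Aramchol and 683, 731 and 626 CPM with vehicle. The log2 difference was 0.57 ± 0.09 with Aramchol present and 0.79 ± 0.09 without it for CALR, and 0.31 ± 0.06 with Aramchol present and 0.52 ± 0.06 without it for CANX. For both genes every library with TGFβ was above every library without it. Per kilobase of exon length, CALR had the highest level of the 42 genes in all 4 groups, at 490.2 CPM per kb with TGFβ + Aramchol, 667 with TGFβ, 329 with Aramchol and 385 with vehicle. HSPA5 and PDIA4 held the next 2 places in each group, and DERL3 was last.

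**Figure D2:**
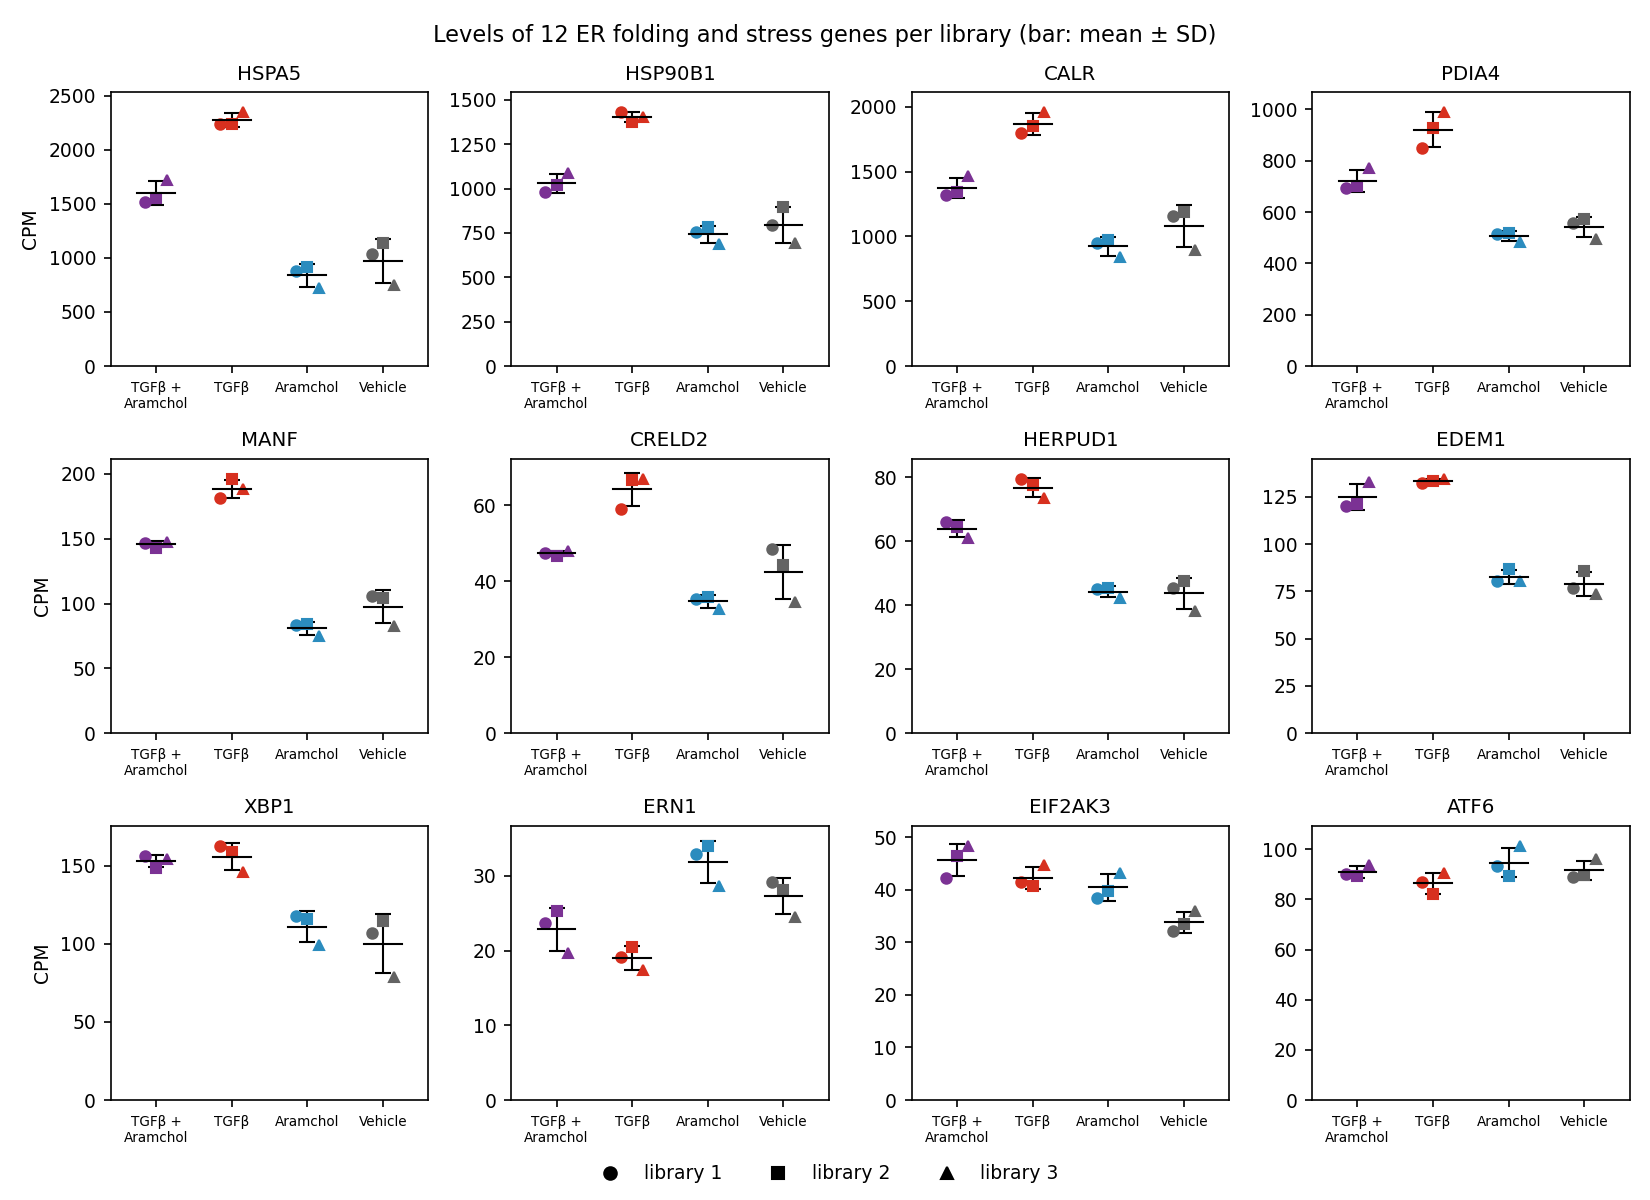
CPM of 12 of the genes in each library, with the y axes starting at 0, circles, squares and triangles for the libraries numbered 1, 2 and 3, and bars for mean ± SD. For HSPA5, HSP90B1, CALR, PDIA4 and MANF the TGFβ + Aramchol libraries lie below the TGFβ libraries and above those without TGFβ, while ERN1 is lower with TGFβ and ATF6 shows no such step.

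Of the 14 oxidoreductases and isomerases, 10 rose with TGFβ alone and 9 with Aramchol in both arms, and none fell. PDIA4, a disulfide isomerase found in complexes with BiP, was at 693, 703 and 769.9 CPM with TGFβ + Aramchol, 849.8, 926 and 989 CPM with TGFβ, 514, 519 and 482 CPM with Aramchol and 555, 572 and 497 CPM with vehicle. PDIA3, the isomerase that calnexin and calreticulin recruit, was at 835, 821 and 852 CPM with TGFβ + Aramchol, 1003, 1004 and 1007 CPM with TGFβ, 634, 642 and 591 CPM with Aramchol and 639.9, 670.3 and 582 CPM with vehicle. PDIA6, which is known to act on BiP clients and on IRE1, was at 323, 322 and 367 CPM with TGFβ + Aramchol, 387, 420.1 and 436 CPM with TGFβ, 259, 273 and 266 CPM with Aramchol and 279.7, 296 and 253 CPM with vehicle. Each of the 3 rose without overlap between the libraries with and without TGFβ. Their log2 differences were 0.51 ± 0.07 with Aramchol present and 0.77 ± 0.07 without it for PDIA4. For PDIA3 they were 0.43 ± 0.06 with Aramchol present and 0.67 ± 0.06 without it. For PDIA6 they were 0.34 ± 0.07 with Aramchol present and 0.58 ± 0.07 without it. P4HB, the classical disulfide isomerase and a subunit of collagen prolyl hydroxylase, was at 866, 844 and 961 CPM with TGFβ + Aramchol, 889, 952 and 1036 CPM with TGFβ, 730.1, 762 and 774 CPM with Aramchol and 739, 743 and 712 CPM with vehicle. Its log2 difference was smaller, at 0.24 ± 0.06 with Aramchol present and 0.39 ± 0.06 without it, and the first of these did not pass without TGFβ + Aramchol library 3 (adjusted p = 0.0581 by edgeR).

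PDIA5, another disulfide isomerase, which is known to act on ATF6, was at 77.4, 73.3 and 89.3 CPM with TGFβ + Aramchol, 86.1, 83.1 and 91.9 CPM with TGFβ, 55.96, 56.1 and 58.6 CPM with Aramchol and 52.01, 52.6 and 52.9 CPM with vehicle. TXNDC5, a thioredoxin-domain isomerase linked to collagen folding in fibroblasts, was at 21.8, 19.7 and 20.9 CPM with TGFβ + Aramchol, 14.4, 19.2 and 20.1 CPM with TGFβ, 11.6, 13.5 and 13.4 CPM with Aramchol and 13.5, 10.95 and 12.7 CPM with vehicle. Of the 26 genes that rose in both comparisons it was the 1 whose log2 difference was larger with Aramchol present, at 0.70 ± 0.11 with Aramchol present and 0.53 ± 0.11 without it, although the interaction of 0.17 ± 0.16 did not pass. PPIB, the cyclophilin that isomerises prolines in collagen, was at 176, 171 and 189 CPM with TGFβ + Aramchol, 180.4, 219.8 and 209.9 CPM with TGFβ, 112, 128 and 119 CPM with Aramchol and 129, 130.0 and 109.7 CPM with vehicle. CRELD2, an ER stress-inducible protein with disulfide isomerase activity, was at 47.4, 46.8 and 47.9 CPM with TGFβ + Aramchol, 59.1, 66.6 and 66.9 CPM with TGFβ, 35.3, 35.98 and 32.8 CPM with Aramchol and 48.5, 44.2 and 34.4 CPM with vehicle. The log2 difference was 0.49 ± 0.07 with Aramchol present and 0.73 ± 0.07 without it for PDIA5. For PPIB it was 0.58 ± 0.08 with Aramchol present and 0.73 ± 0.08 without it. For CRELD2 it was 0.45 ± 0.10 with Aramchol present and 0.60 ± 0.09 without it, and vehicle library 3 lay among the Aramchol libraries. ERO1A, the oxidase that recharges PDI, was at 164, 175 and 177 CPM with TGFβ + Aramchol, 168, 167 and 169.5 CPM with TGFβ, 141, 142 and 138 CPM with Aramchol and 118, 121 and 136 CPM with vehicle, and its log2 difference was 0.30 ± 0.06 with Aramchol present and 0.43 ± 0.06 without it.

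The remaining members of the group moved little. ERP44, which retains client proteins at the ER exit, averaged 78.1 ± 2.74 CPM with TGFβ + Aramchol, 78.6 ± 4.20 CPM with TGFβ, 70.8 ± 3.39 CPM with Aramchol and 67.3 ± 2.13 CPM with vehicle (SD, n = 3 each), and its log2 difference of 0.14 ± 0.06 with Aramchol present did not pass while that of 0.22 ± 0.06 without it did. ERP29, a chaperone of secretory cargo, averaged 107 ± 7.88 CPM with TGFβ + Aramchol, 102 ± 4.47 CPM with TGFβ, 112 ± 4.82 CPM with Aramchol and 103 ± 3.40 CPM with vehicle. TXNDC11 averaged 38.8 ± 2.97 CPM with TGFβ + Aramchol, 37.8 ± 3.38 CPM with TGFβ, 41.9 ± 5.07 CPM with Aramchol and 38.4 ± 4.63 CPM with vehicle. ERO1B, the second oxidase, averaged 14.6 ± 0.534 CPM with TGFβ + Aramchol, 15.5 ± 1.23 CPM with TGFβ, 14.4 ± 0.259 CPM with Aramchol and 16.3 ± 3.83 CPM with vehicle, and CRELD1 averaged 11.3 ± 1.15 CPM with TGFβ + Aramchol, 13.2 ± 1.68 CPM with TGFβ, 10.95 ± 0.658 CPM with Aramchol and 11.97 ± 0.886 CPM with vehicle. None of these 4 genes passed in any comparison.

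ERAD factors were divided, with 5 of 10 genes higher with TGFβ in both comparisons. HERPUD1, a membrane protein that assembles the retrotranslocation complex, was at 66.2, 64.5 and 60.9 CPM with TGFβ + Aramchol, 79.4, 77.5 and 73.4 CPM with TGFβ, 44.9, 45.4 and 42.3 CPM with Aramchol and 45.2, 47.5 and 38.3 CPM with vehicle. EDEM1, a mannosidase-like protein that marks glycosylated chains for degradation, was at 120.1, 121 and 133 CPM with TGFβ + Aramchol, 132, 134 and 134 CPM with TGFβ, 80.7, 86.6 and 80.5 CPM with Aramchol and 76.7, 85.9 and 73.7 CPM with vehicle. SEL1L, the adaptor of the ubiquitin ligase HRD1, was at 171, 199 and 195 CPM with TGFβ + Aramchol, 201, 200.1 and 208 CPM with TGFβ, 149.8, 154 and 149 CPM with Aramchol and 135, 151 and 154 CPM with vehicle. Their libraries with TGFβ were all above those without it. The log2 differences were 0.53 ± 0.07 with Aramchol present and 0.81 ± 0.07 without it for HERPUD1. EDEM1 had 0.59 ± 0.06 with Aramchol present and 0.76 ± 0.06 without it. SEL1L had 0.32 ± 0.06 with Aramchol present and 0.47 ± 0.06 without it. The channel-forming proteins DERL1 and DERL2 rose by 0.19 ± 0.05 with Aramchol present and 0.20 ± 0.05 without it and by 0.24 ± 0.05 with Aramchol present and 0.35 ± 0.05 without it, and DERL1 did not pass with Aramchol present once Aramchol library 1 was left out (adjusted p = 0.0550 by edgeR).

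SYVN1, the HRD1 ligase itself, averaged 76.5 ± 2.21 CPM with TGFβ + Aramchol, 76.9 ± 3.17 CPM with TGFβ, 73.4 ± 3.86 CPM with Aramchol and 70.2 ± 2.31 CPM with vehicle (SD, n = 3 each) and passed in no comparison. OS9, the lectin that delivers glycoproteins to SEL1L, averaged 155 ± 1.02 CPM with TGFβ + Aramchol, 155 ± 3.19 CPM with TGFβ, 149 ± 0.899 CPM with Aramchol and 147 ± 5.62 CPM with vehicle and EDEM3, a mannosidase, averaged 74.1 ± 6.54 CPM with TGFβ + Aramchol, 69.3 ± 6.58 CPM with TGFβ, 68.5 ± 6.68 CPM with Aramchol and 60.8 ± 11.5 CPM with vehicle; neither passed. EDEM2, the mannosidase that starts glycan trimming for ERAD, was the gene that fell besides ERN1, at 50.4 ± 1.85 CPM with TGFβ + Aramchol, 49.4 ± 0.687 CPM with TGFβ, 54.5 ± 0.805 CPM with Aramchol and 53.9 ± 0.179 CPM with vehicle. Its log2 difference was -0.11 ± 0.05 with Aramchol present and -0.13 ± 0.05 without it, the call without Aramchol rested on an adjusted p of 0.0483 by edgeR, and it was lost when any 1 of the 12 libraries was left out. DERL3 passed in no comparison at counts this low.

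The sensors and transcription factors did not move as 1 group. XBP1, the factor whose mRNA IRE1 splices, was at 156, 148 and 154 CPM with TGFβ + Aramchol, 162, 159 and 146 CPM with TGFβ, 117, 116 and 99.4 CPM with Aramchol and 107, 115 and 78.9 CPM with vehicle. Its log2 difference was 0.46 ± 0.10 with Aramchol present and 0.64 ± 0.10 without it. CREB3L1 (OASIS) was at 125, 122 and 137 CPM with TGFβ + Aramchol, 144, 138 and 146 CPM with TGFβ, 99.04, 93.6 and 102 CPM with Aramchol and 101, 94.5 and 88.02 CPM with vehicle, and CREB3L2 was at 145, 157 and 151 CPM with TGFβ + Aramchol, 174, 176 and 169 CPM with TGFβ, 144, 142 and 138 CPM with Aramchol and 143, 158 and 126 CPM with vehicle. CREB3L1 rose by 0.38 ± 0.06 with Aramchol present and 0.59 ± 0.06 without it, and CREB3L2 had differences of 0.10 ± 0.07 with Aramchol present and 0.28 ± 0.07 without it and passed in the second alone. EIF2AK3 was at 42.3, 46.3 and 48.2 CPM with TGFβ + Aramchol, 41.4, 40.7 and 44.6 CPM with TGFβ, 38.3, 39.7 and 43.2 CPM with Aramchol and 32.1, 33.4 and 35.9 CPM with vehicle. It had log2 differences of 0.17 ± 0.07 with Aramchol present and 0.32 ± 0.07 without it, of which the second passed. ERN1, which encodes IRE1, fell, with 23.6, 25.3 and 19.7 CPM with TGFβ + Aramchol, 19.1, 20.5 and 17.4 CPM with TGFβ, 32.9, 33.9 and 28.7 CPM with Aramchol and 29.2, 28.1 and 24.5 CPM with vehicle. Its log2 difference was -0.48 ± 0.10 with Aramchol present and -0.52 ± 0.10 without it (adjusted p = 0.00159 and 0.000665 by edgeR), opposite in sign to that of its substrate XBP1. ATF6 was at 89.9, 89.4 and 93.8 CPM with TGFβ + Aramchol, 86.8, 82.1 and 90.5 CPM with TGFβ, 93.4, 89.5 and 101 CPM with Aramchol and 88.98, 89.8 and 95.9 CPM with vehicle, its groups overlapped, and it passed in no comparison, with log2 differences of -0.06 ± 0.06 with Aramchol present and -0.08 ± 0.06 without it.

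**Figure D3:**
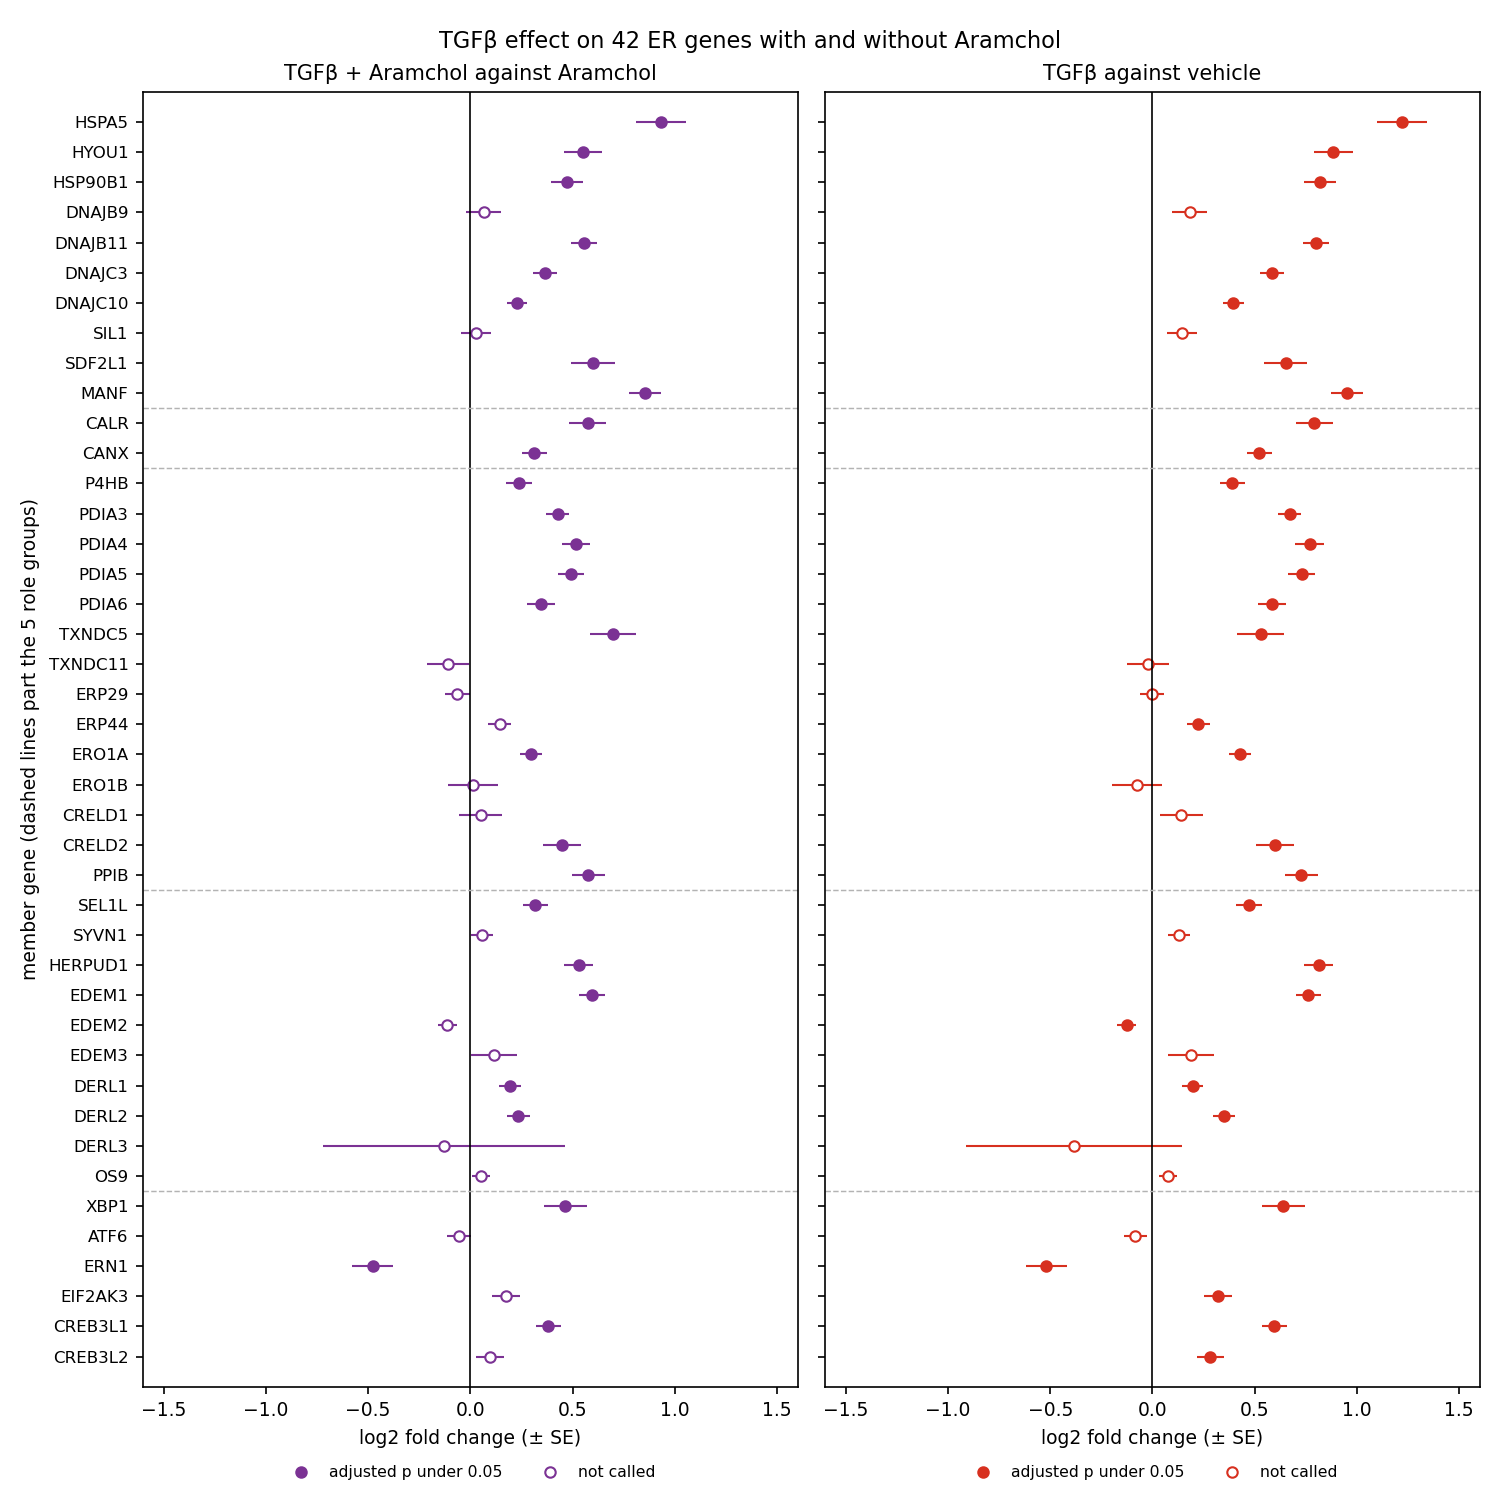
Log2 difference ± SE of each of the 42 genes for TGFβ + Aramchol against Aramchol (left panel) and TGFβ against vehicle (right panel), in role order, with filled points for adjusted p under 0.05. Most chaperones and isomerases lie right of 0 in both panels, HSPA5 at 0.93 and 1.22, and ERN1 lies left of 0 in both, at -0.48 and -0.52.

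Other markers moved with TGFβ in the same libraries. Of 10 fibroblast markers tested, 7 rose and 1 fell with TGFβ alone, and 6 rose and 1 fell with Aramchol in both arms. Their summed level was 3488 to 4842 CPM with TGFβ + Aramchol, 4842 to 6373 CPM with TGFβ, 1187 to 1411 CPM with Aramchol and 1116 to 1352 CPM with vehicle. COL1A1 made up most of these sums, with means of 3472 CPM with TGFβ + Aramchol, 4752.5 with TGFβ, 1083 with Aramchol and 1058 with vehicle. COL3A1, another fibroblast collagen gene, was near 0 in all groups. Plasma cells, which are rich in ER chaperones, had 2 of 6 markers tested, SDC1 and PRDM1, and both rose, while JCHAIN was at 0 and MZB1 near 0. Of 11 cholangiocyte markers tested, 5 rose and 3 fell with TGFβ alone, and their summed level was 2615 to 2862 CPM with TGFβ + Aramchol, 2875 to 3082 CPM with TGFβ, 1827 to 2176 CPM with Aramchol and 1485 to 2345 CPM with vehicle. Those that fell were EPCAM, SOX9 and KRT19, named after their values were seen. Of 6 hepatocyte markers tested 2 rose and 3 fell, with ALB near 0, and of 7 endothelial markers 2 rose and 2 fell, with CDH5 and VWF near 0. Of 8 leukocyte markers, CSF1R and CD14 were tested; CSF1R rose and CD14 fell, while PTPRC was at or near 0. Summed levels were 95.1 to 105 CPM (hepatocyte), 9.85 to 14.2 CPM (endothelial) and 20.4 to 21.4 CPM (leukocyte) with TGFβ + Aramchol, 114 to 122, 8.54 to 11.5 and 24.9 to 28.3 CPM with TGFβ, 115 to 127, 15.6 to 20.7 and 29.2 to 29.8 CPM with Aramchol, and 95.3 to 161, 10.2 to 16.9 and 28.6 to 35.3 CPM with vehicle. Mitochondrially encoded genes took 7.81 to 9.45% of counts, and 2 of 13 rose with TGFβ alone. The part of these changes in the results above was not tested.

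TGFβ + Aramchol against TGFβ asks what Aramchol did in cells that also received the cytokine. None of the 42 genes rose and 11 fell, against 0.890% and 1.36% of all genes tested called higher and lower. They were 5 genes of the HSP70 and HSP90 system (HSPA5, HSP90B1, DNAJB11, DNAJC3 and MANF), both lectins, and 4 oxidoreductases (PDIA3, PDIA4, PDIA6 and CRELD2). No ERAD factor, sensor or transcription factor passed. The median log2 difference of the 42 genes was -0.12, against -0.00069 for all genes, and 32 of the 42 lay below 0, against 50.2% of all genes. In 18 genes all TGFβ + Aramchol libraries lay below all TGFβ libraries and in 1 (DERL1) all lay above, against 12.2% and 11.5% of all genes.

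HSPA5 averaged 1599 ± 109 CPM with TGFβ + Aramchol and 2273 ± 62.1 CPM with TGFβ (SD, n = 3 each). Its log2 difference was -0.51 ± 0.12 (95% interval -0.76 to -0.25; adjusted p = 0.0401 by edgeR), the largest of the 11. HSP90B1 differed by -0.45 ± 0.08 (adjusted p = 0.0112 by edgeR), CALR by -0.44 ± 0.09 and CRELD2 by -0.44 ± 0.09. These 4 genes therefore stood at about 0.703 to 0.738 of their level with TGFβ. MANF fell by 0.37 on the log2 scale, DNAJC3 by 0.36 (adjusted p = 0.00888, the smallest of the 11 by edgeR) and PDIA4 by 0.35. PDIA6, DNAJB11, PDIA3 and CANX fell by 0.30, 0.26, 0.26 and 0.26. For all 11 genes, as the values above show, the 3 libraries with TGFβ + Aramchol were below the 3 with TGFβ.

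Other chaperone and ERAD genes had differences below 0 that did not pass. HYOU1 had -0.28 ± 0.09 and HERPUD1 -0.27 ± 0.07, each without overlap between the groups (adjusted p = 0.131 and 0.0647 by edgeR). SDF2L1 had -0.27 ± 0.11, CREB3L2 -0.20 ± 0.07 and CREB3L1 -0.16 ± 0.06. EDEM1, with -0.10 ± 0.06, SEL1L, with -0.11 ± 0.06, and P4HB, with -0.11 ± 0.06, lay nearer 0, and XBP1, with -0.03 ± 0.10, and ERO1A, with 0.03 ± 0.06, nearer still. On the other side of 0 were ERN1 with 0.27 ± 0.10, TXNDC5 with 0.22 ± 0.11 and EIF2AK3 with 0.11 ± 0.07.

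The sign of the 11 calls held and their number did not. All 11 differences stayed below 0 without each of the 12 libraries in turn, but DNAJC3 was the one gene that passed in every such fit. Without TGFβ + Aramchol library 1, 1 gene passed (DNAJC3), against 0.135% of all genes called lower. Without TGFβ + Aramchol library 2 (0.188% of all genes), TGFβ library 2 (0.247%) or TGFβ library 3 (0.371%), DNAJC3 and HSP90B1 passed. Without TGFβ library 1, DNAJC3 and PDIA4 passed, against 0.336% of all genes. Leaving out Aramchol library 1 or 2 gave 7 genes (0.892% and 0.841% of all genes). Of the markers of other cell types, 2 of 10 fibroblast genes, both plasma cell genes tested (SDC1 and PRDM1) and 1 of 2 leukocyte genes (CSF1R) also fell in this comparison, as did 1 of 13 mitochondrially encoded genes, and their part in the result was not tested.

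**Figure D4:**
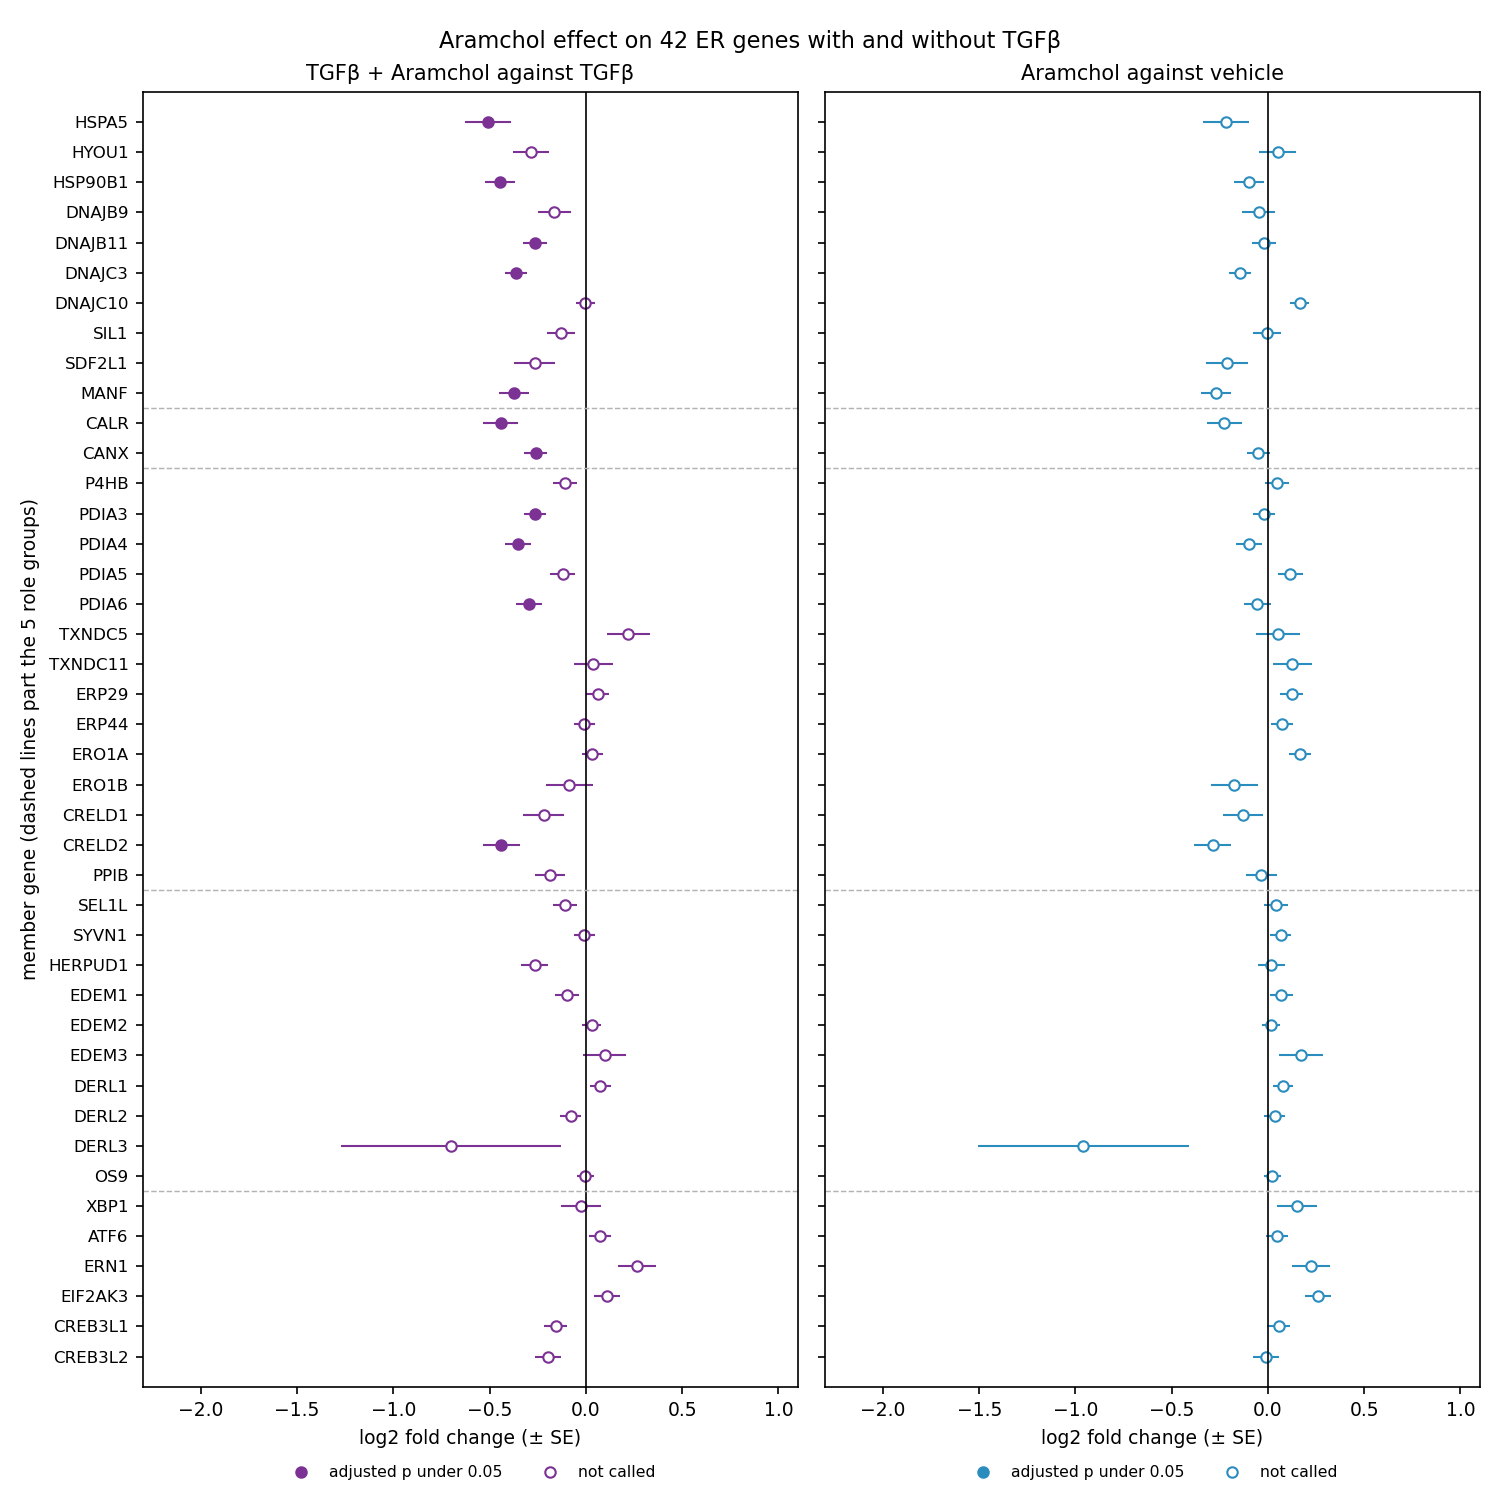
Log2 difference ± SE of each of the 42 genes for TGFβ + Aramchol against TGFβ (left panel) and Aramchol against vehicle (right panel), in role order, with filled points for adjusted p under 0.05. The 11 filled points of the left panel lie between -0.51 and -0.26, and no point is filled in the right panel.

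Aramchol against vehicle asks what the compound did without TGFβ. None of the 42 genes passed by edgeR, against 0.357% of all genes tested. At an unadjusted p under 0.05 there were 8 genes, against 11.7% of all genes, and DESeq2 called EIF2AK3 higher, against 1.41% of its genes. The median log2 difference was 0.02, against -0.01 for all genes. CRELD2, with -0.29 ± 0.10, MANF, with -0.27 ± 0.08, CALR, with -0.23 ± 0.09, and HSPA5, with -0.22 ± 0.12 (95% interval -0.47 to 0.04), lay below 0. EIF2AK3, with 0.26 ± 0.07, ERO1A, with 0.16 ± 0.06, and ERN1, with 0.22 ± 0.10, lay above 0. These 7 genes kept their sign without each of the 12 libraries in turn, but the size moved: HSPA5 ran from -0.38 (without vehicle library 3) to -0.09 (without vehicle library 2), and it was -0.12 without Aramchol library 3. The count of calls changed without vehicle library 3. Then EIF2AK3 and ERO1A were called higher and HSPA5, CALR, CRELD2, MANF and SDF2L1 lower, against 0.997% and 1.75% of all genes, and with the libraries numbered 1 and 2 alone 5 genes were called higher and 5 lower, against 3.23% and 3.86%. With a term for the libraries numbered 3, EIF2AK3 and ERN1 were called higher and MANF lower, against 1.37% and 1.13%, and without a filter EIF2AK3 was called higher and MANF, HSPA5, CALR and CRELD2 lower, against 0.634% and 0.627%.

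The interaction, which is the TGFβ difference with Aramchol present minus that without it, passed for none of the 42 genes by edgeR, against 0.0139% of all genes tested, nor by DESeq2, against 0.170% of its genes. At an unadjusted p under 0.05 there were 12 genes, all below 0, against 5.27% of all genes. The interaction was below 0 for 36 of the 42 genes, against 48.5% of all genes, with a median of -0.15, against 0.01. It was -0.35 ± 0.11 for HSP90B1 (95% interval -0.58 to -0.11; adjusted p = 0.827 by edgeR) and -0.33 ± 0.13 for HYOU1 (95% interval -0.62 to -0.05). HSPA5 had -0.29 ± 0.17, HERPUD1 -0.28 ± 0.10, and PDIA3 and PDIA4 had -0.24 ± 0.08 and -0.25 ± 0.10. MANF, with -0.10 ± 0.11, and SDF2L1, with -0.05 ± 0.15, were nearer 0. Vehicle library 3 moved these values most for several genes. Without it the interaction was -0.13 for HSPA5, -0.26 for HSP90B1, -0.22 for HYOU1, -0.20 for HERPUD1, 0.0044 for MANF and 0.09 for SDF2L1, so that the last 2 changed sign. Over the 12 fits without 1 library, HSPA5 ran from -0.42 to -0.13, MANF from -0.16 to 0.0044 and SDF2L1 from -0.19 to 0.09. In those fits 35 to 37 of the 42 genes lay below 0, and 7 to 16 had an unadjusted p under 0.05. The 7 came without TGFβ + Aramchol library 1, TGFβ library 3 or Aramchol library 2, against 4.27%, 4.59% and 4.06% of all genes. The 42 genes were measured in the same libraries, so that these signs are not independent of each other. Without a filter on low counts HSPA5, HYOU1 and HSP90B1 were called lower, against 0.271% of all genes, and with the libraries numbered 1 and 2 alone HYOU1 and HSP90B1 were called lower, against 0.533%.

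Set beside the promoter sequences above, 10 of the 11 genes with an ERSE or ERSE-II match were called higher with TGFβ alone, with a median log2 difference of 0.65, and ERO1B was the one that was not. Of the 28 genes with a window and no such match, 17 were called higher and 2 lower, with a median of 0.34. The shares of all genes tested were 18.9% called higher and 18.1% lower. In TGFβ + Aramchol against TGFβ, 6 of the 11 genes were called lower (median -0.28), and 4 of the 28 (median -0.09), against 1.36% of all genes. The other 5 did not pass: XBP1 and ERO1B, which carry the ERSE letters, had -0.03 and -0.09, and HYOU1, HERPUD1 and SDF2L1, which carry those of ERSE-II, had -0.28, -0.27 and -0.27, between the called genes PDIA6 (-0.30) and CANX (-0.26). The difference between genes with and without a match was not tested, and a match of letters is no measure of binding.

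The rest of the secretory pathway gave a background for these values, from lists of other genes, whose counts stand against the 18.9% of all genes called higher and 18.1% called lower with TGFβ alone. With Aramchol in both arms these shares were 16.0% and 14.2%. Of 22 genes of translocation and signal peptide cleavage, 16 rose and 2 fell with TGFβ alone, led by SSR3, a subunit of the translocon-associated complex (log2 difference 0.71 ± 0.05), and SEC61A1, the channel subunit (0.54 ± 0.05). With Aramchol in both arms 10 rose and 2 fell. Of 27 genes of N-glycosylation and glycan trimming, 12 rose and 1 fell with TGFβ alone, with OSTC, an oligosaccharyltransferase subunit, at 0.79 ± 0.05. With Aramchol in both arms 6 of these rose and 1 fell (22.2% and 3.70%). Among 27 further ERAD factors, 10 rose and 6 fell with TGFβ alone, and UBE2J1, a ubiquitin-conjugating enzyme, fell by 0.39 while FBXO2, a glycoprotein-binding F-box protein, rose by 1.00. With Aramchol in both arms 9 of these 27 rose and 4 fell. Of 14 collagen chaperone and hydroxylase genes, 12 rose with TGFβ alone and none fell, with the prolyl hydroxylase subunits P4HA3 at 3.46 ± 0.11 and P4HA2 at 1.43 ± 0.08. With Aramchol in both arms 11 of these 14 rose and none fell. Of 21 other thiol and proline enzymes, 9 rose and 1 fell with TGFβ alone, and 8 rose with Aramchol in both arms.

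In TGFβ + Aramchol against TGFβ, 0.890% of all genes tested were called higher and 1.36% lower. Against these shares the 5 lists held 2 calls in all, both lower: SSR3 at -0.24 ± 0.05 and P4HA3 at -0.47 ± 0.10. So few calls are not read as a result about these lists. The 8 ER-phagy receptors, which deliver ER to lysosomes, went the other way from the chaperones with TGFβ alone, with 4 lower and 1 higher. RTN3 lay below 0, at -0.17 ± 0.05. None of the 8 passed with Aramchol in both arms. Of 12 genes that process or assist ATF6 and CREB3L factors, 6 fell and 1 rose with TGFβ alone, the last being NFYA, an NF-Y subunit, at 0.40 ± 0.05, and its partner NFYB fell by 0.46. Of 11 IRE1 partners and ER stress death factors tested, 2 rose and 3 fell with TGFβ alone (18.2% and 27.3%, near the shares of all genes), and MAP3K5, a kinase downstream of IRE1, fell by 1.53 on the log2 scale. With Aramchol added to TGFβ, PMAIP1, which encodes the death factor NOXA, was the 1 gene of these 3 lists that passed, at -0.36 ± 0.08.

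The PERK and ATF4 arm was the list with genes called higher with Aramchol. Of its 17 genes, 4 were called higher and none lower both in TGFβ + Aramchol against TGFβ and in Aramchol against vehicle, comparisons that share no library, against 0.890% and 0.236% of all genes called higher. They were CHAC1, ASNS, ATF4 and TRIB3, all named after their values were seen. CHAC1, which degrades glutathione, had log2 differences of 1.24 ± 0.14 with TGFβ present and 1.41 ± 0.14 without it. ASNS, the asparagine synthetase, had 1.33 ± 0.19 and 1.04 ± 0.19. ATF4, the transcription factor of the arm, had 0.35 ± 0.05 and 0.43 ± 0.05, and TRIB3, its pseudokinase target, had 0.45 ± 0.09 and 0.55 ± 0.09. In the same libraries EIF2AK3, which encodes the PERK kinase, had 0.11 ± 0.07 and 0.26 ± 0.07 and passed in neither. With TGFβ alone 8 of the 17 genes rose and 1 fell, with NUPR1 at 1.30 ± 0.13 and ATF3 at 0.50 ± 0.07.

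**Figure D5:**
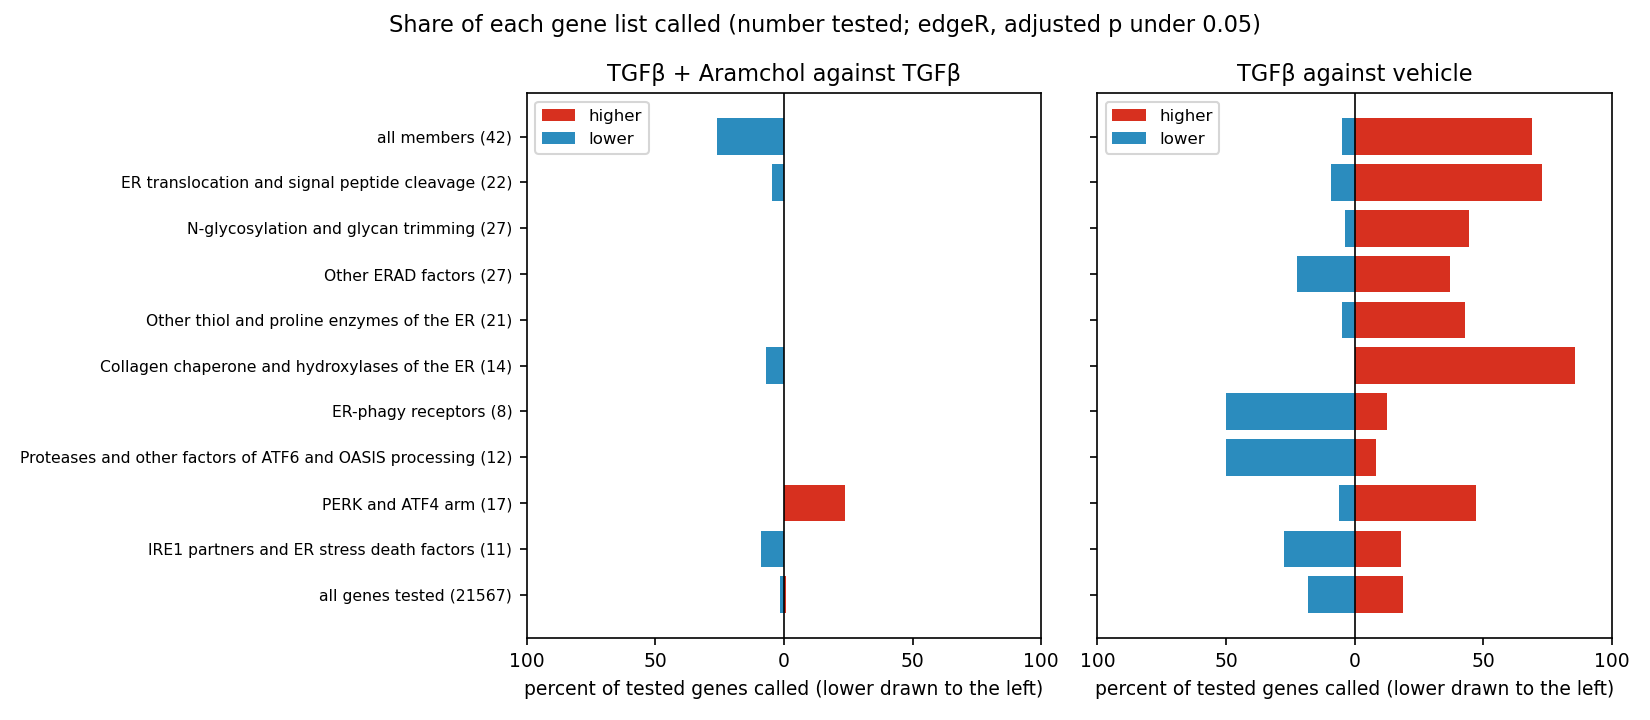
Percent of tested genes called higher (right of 0) and lower (left of 0) in the 42 genes and in the other lists of the secretory and stress pathways, for TGFβ + Aramchol against TGFβ (left panel) and TGFβ against vehicle (right panel), with the number tested in brackets. With Aramchol added to TGFβ, the 42 genes carry 11 lower calls and the PERK and ATF4 arm 4 higher calls.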

How the data were processed

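RNA of 12 libraries of H69 cells was sequenced, 3 libraries in each of 4 groups. Per the submitters' processing notes, STAR 2.7.9a aligned the reads to GRCh38 and featureCounts (Subread) assigned them to genes; DESeq2 is named there too. The deposited table holds raw read counts per gene, as whole numbers and without molecular identifiers, so that counting error is a lower limit of their error. The sources used here do not give the strand setting or the annotation release.

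After filterByExpr, 21567 of the 62703 genes remained. TMM factors (0.930 to 1.09) scaled the libraries, and edgeR 4.0.16 (R 4.3.3) fitted a quasi-likelihood model with a mean for each group, at a biological coefficient of variation of 8.90%. For 5 contrasts (TGFβ against vehicle, TGFβ + Aramchol against Aramchol, Aramchol against vehicle, TGFβ + Aramchol against TGFβ, and the interaction) a gene counted as called below a Benjamini-Hochberg adjusted p of 0.05 over all genes tested. Standard errors and 95% intervals came from that fit, which was checked on simulated data. Levels are CPM of TMM-scaled library sizes, and levels per kilobase use the exon length in the table. No 2 libraries of a group agreed within sampling noise.

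The 42 genes and all lists were chosen with earlier results of these data known. Values per library are given for 22 genes fixed by name and for other members called with a log2 difference of at least 0.58. From each further list, the 2 genes of smallest p in TGFβ against vehicle and in TGFβ + Aramchol against TGFβ could be named. Alternatives were RLE scaling, upper quartile scaling, omission of the filter, a stricter filter (10 counts or more in 3 libraries, mean CPM at least 1), DESeq2 1.42.0, a block for the replicate number, a term for libraries numbered 3, a fit of libraries numbered 1 and 2, fits of the groups compared alone, and each library left out. Promoter sequences are from RefSeq (GRCh38.p14), and exon overlaps from the exon positions given with the deposited counts. Python 3.11.15, pandas 2.3.3 and matplotlib 3.10.9 were used for tables and figures.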

Additional observations from a re-analysis of the deposited data

How the results depend on the processing

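The counts for TGFβ stayed within 1.5 times their main values under every alternative run, at 30 to 32 genes for TGFβ against vehicle and 26 to 29 for TGFβ + Aramchol against Aramchol without each library in turn. For Aramchol against vehicle, where no gene passed, 5 passed without a filter, 1 with DESeq2, 2 with the replicate block, 3 with a term for the libraries numbered 3 and 10 with the libraries numbered 1 and 2 alone. Without each library, that count ran from 0 to 7, and the 7 came without vehicle library 3. For TGFβ + Aramchol against TGFβ, the 11 genes became 1 to 15 without each library. The share of all genes called lower moved as well. It was 1.36% in the main fit and 0.135% without TGFβ + Aramchol library 1, where 1 gene passed. For the 15 genes, and for the 2 of Aramchol against vehicle with the replicate block, the share in the same fit is not given. Neither count is therefore read as particular to these genes. For the interaction, 3 passed without a filter, 2 with the libraries numbered 1 and 2 alone, and 0 without each library. The cause of these shifts was not tested. Across all alternatives, 1375 single calls kept their direction and side of the threshold, 74 no longer passed and none reversed. The losses were uneven. Calls that passed without each library in turn were 30 of 31 for TGFβ against vehicle and 25 of 27 for TGFβ + Aramchol against Aramchol. For TGFβ + Aramchol against TGFβ they were 1 of 11. No scaling moved the median of all genes by as much as 0.1 on the log2 scale.

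The replicate numbers were not taken to pair the samples: deviations from group means of same-numbered libraries correlated at 0.00739 to 0.221, over 0.1 in 7 of 18 pairs, among them all 6 pairs numbered 3 (0.111 to 0.221), and 4 of the 12 libraries correlated best with their own number in all other groups. With the replicate number as a block, 2 genes passed in Aramchol against vehicle and the other counts stayed within 1.5 times. The shares of all genes in that fit are not given beside these counts. Of the 42 genes, 41 averaged at least 1 CPM in every group, and DERL3 was near the floor.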

Other observations

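The order of the libraries within a group differed between groups over the 42 genes. Library 3 ranked highest in its group for 23 genes with TGFβ + Aramchol, 24 with TGFβ, 10 with Aramchol and 14 with vehicle. It was the lowest of its group for 8 genes with TGFβ + Aramchol, 9 with TGFβ, 25 with Aramchol and 25 with vehicle. For HSPA5, library 3 held 1723 CPM with TGFβ + Aramchol, 2345 CPM with TGFβ, 718 CPM with Aramchol and 748 CPM with vehicle, the highest of the first 2 groups and the lowest of the last 2. The genes share their libraries, and the same orders were not counted over all genes tested. The libraries numbered 3 also stood apart on the third principal component of all genes tested. These orders are therefore not read as particular to the 42 genes, and they were not tested.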
